A study of Mus musculus with 6 samples.

Results

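Hepatic stellate cells from the tumour region of livers of mice on a high fat diet were isolated by perfusion at 37 degrees or at 6 degrees, and their transcripts were compared. The pair consisted of 2 of the 6 libraries of the study, 1 library at 37 degrees and 1 at 6 degrees. Of 11558 genes tested, 723 (6.26%) were at least 2-fold apart between these libraries on the scale of log2(FPKM + 1), where FPKM count fragments for each kilobase of a transcript, scaled to sequencing depth. Every difference is the value at 37 degrees minus the value at 6 degrees on that scale, so 1 stands for a 2-fold higher value of FPKM + 1. All mice were wild type C57BL/6 aged 35 weeks. The other 4 libraries form a non-tumour pair, from the non-tumour region of livers on the same diet, and a normal diet pair, each with 1 library at 37 degrees and 1 at 6 degrees. In all 6 groups the CD31-/CD45.2-/CD49a+ fraction was sorted before RNA extraction. The labels do not say how many animals each library held, or whether the libraries of a pair shared livers. With 1 library in each group the tumour pair has no replicate check and no p-value of its own.

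Hepatic stellate cells are pericytes of the liver sinusoid that store vitamin A and turn into matrix-producing myofibroblasts after injury. Isolating them takes digestion of the liver with enzymes, usually at body temperature, and cells can transcribe new RNA while it lasts. Immediate early genes such as Fos and Egr1 need no new protein to be switched on and are well known to appear in cells digested warm. Cytokine and interferon genes form later layers of response, which are limited by inhibitors such as Socs1 and Tnfaip3. Digestion in the cold slows transcription and enzymes alike.

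The tumour libraries showed the stellate cell label in their transcripts. All 20 stellate cell markers listed were at 1 FPKM or more in both, with a summed level of 36911 FPKM at 37 degrees and 27863 FPKM at 6 degrees. Itga1 encodes CD49a, on which the cells were collected, and was at 179 FPKM at 37 degrees, against 172 FPKM at 6 degrees. Pecam1, which encodes CD31, was at 10.7 FPKM at 37 degrees, against 53 FPKM at 6 degrees, and Ptprc, which encodes CD45, was at 5.44 FPKM at 37 degrees, against 16.5 FPKM at 6 degrees. Sinusoidal endothelial markers summed to 971 FPKM at 37 degrees and 2792 FPKM at 6 degrees, and macrophage markers summed to 941 FPKM at 37 degrees and 2333 FPKM at 6 degrees. The tumour libraries held an estimated 1.7e+07 fragments at 37 degrees and 2e+07 at 6 degrees, so that a single fragment of a 1 kb transcript gave 0.0589 FPKM at 37 degrees and 0.05 FPKM at 6 degrees. The range over all 6 libraries was 1.7e+07 to 2.37e+07 fragments.

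In the tumour pair 227 genes (1.96% of those tested) were at least 2-fold higher at 37 degrees and 496 (4.29%) at least 2-fold lower. The median difference of all genes was -0.006. The non-tumour pair had 26 genes (0.225%) higher and 665 (5.75%) lower, 5.98% in all. The normal diet pair had 90 (0.779%) higher and 477 (4.13%) lower, 4.91% in all. Of the 227 higher genes, 156 (68.7%) were past 2-fold in the tumour pair alone, that is, within 1 of 0 in both other pairs. These 156 are 1.35% of all genes tested. Another 54 were also higher in the normal diet pair and 8 in the non-tumour pair, 3 were higher in all 3 pairs, and 6 were at least 2-fold lower in another pair. The lower genes were divided differently. Of 496, 283 (57.1%) were lower in all 3 pairs, 115 also in the non-tumour pair, 5 also in the normal diet pair and 89 (17.9%, or 0.77% of all genes tested) in the tumour pair alone, and 4 went the other way in another pair. As a share of the other lists, the 11 higher genes that the tumour and non-tumour pairs had in common were 42.3% of the 26, and the 58 in common with normal diet were 64.4% of the 90. The 399 lower genes in common with the non-tumour pair were 60.0% of its 665, and the 289 in common with the normal diet pair 60.6% of its 477. Just inside the threshold lay Mafk (1.001), Ddx5 (1.001) and Klf9 (1.01) on the higher side, and just outside it Fbln1 (0.999), Max (0.99) and Gata6 (0.99). On the lower side Cdca5 (-1.003), Plbd1 (-1.004) and Clec12a (-1.01) lay just inside and Itga6 (-0.998), Fam111a (-0.998) and Hacd4 (-0.996) just outside.

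**Figure D1:**
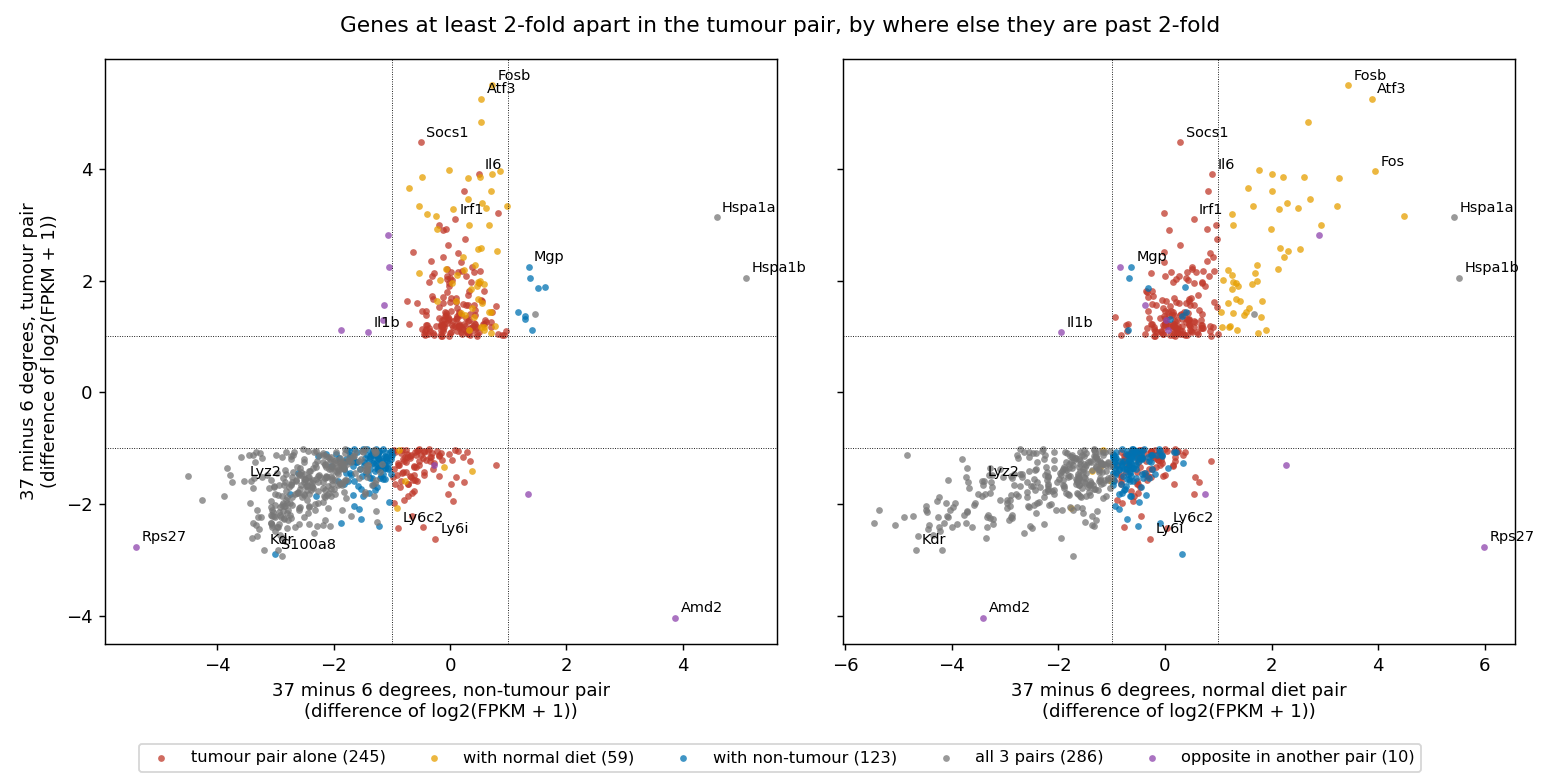
Each point is 1 of the 723 genes at least 2-fold apart in the tumour pair; the vertical axis gives its difference of log2(FPKM + 1), 37 minus 6 degrees, for the tumour pair and the horizontal axes give the same in the non-tumour pair (left) and the normal diet pair (right), with dotted lines at a difference of 1 and -1. Colours mark the pairs in which a gene was past 2-fold: the 245 genes of the tumour pair alone lie between the dotted vertical lines in both panels, and the 286 genes of all 3 pairs are nearly all at the lower left.

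Among the 12 largest differences of genes higher in the tumour pair alone were those of Socs1, Il6, Mx2, Irf1 and Cxcl10, beside Fam71a, Arid5a, Cdkn1a, Bcr, Map3k8, Odc1 and Ccnl1. Of 12 cytokines and colony-stimulating factors tested 3 were higher in the tumour pair, 1 of them in that pair alone, and 1 was lower, with a list median of 0.02. Of 22 cytokine receptors and SOCS proteins 2 were higher, 1 of them in that pair alone, and 0 lower, with a list median of 0.08. Over all genes 1.96% were higher. Socs1, the inhibitor of JAK kinases that cytokines induce, was at 130.4 FPKM at 37 degrees, against 4.94 FPKM at 6 degrees (GRCm38 chromosome 16, 10782240 to 10785536). Non-tumour cells had 5.13 FPKM at 37 degrees and 7.68 FPKM at 6 degrees, and normal diet cells 7.68 FPKM at 37 degrees and 6.10 FPKM at 6 degrees. The library of the tumour region at 37 degrees was thus far above the other 5, which lay close together, and the differences were 4.47 in the tumour pair, -0.50 in the non-tumour pair and 0.29 in the normal diet pair. Irf1, a transcription factor of the interferon response (chromosome 11, 53770014 to 53778374), was at 808 FPKM at 37 degrees, against 93.6 FPKM at 6 degrees in the tumour pair. Its other 4 libraries spanned 108 to 164 FPKM, and its differences were 3.10 in the tumour pair, 0.08 in the non-tumour pair and 0.54 in the normal diet pair. Cxcl10, an interferon-inducible chemokine that attracts T cells (chromosome 5, 92346638 to 92348889), was at 888 FPKM at 37 degrees, against 111 FPKM at 6 degrees in the tumour pair. It was at 114 FPKM at 37 degrees and 130.1 FPKM at 6 degrees for non-tumour cells, and at 85.4 FPKM at 37 degrees and 43.5 FPKM at 6 degrees for normal diet cells. The normal diet libraries also differed in this chemokine by 0.96, just under the threshold, and the non-tumour libraries by -0.18. Il6, the cytokine of the acute phase response (chromosome 5, 30013114 to 30019981), was at 17.9 FPKM at 37 degrees, against 0.263 FPKM at 6 degrees in the tumour pair. For non-tumour cells Il6 was at 0.487 FPKM at 37 degrees and 0.0528 FPKM at 6 degrees, and for normal diet cells at 1.01 FPKM at 37 degrees and 0.0883 FPKM at 6 degrees. All 3 libraries at 37 degrees were higher than their partners at 6 degrees in Il6, and the 5 libraries other than the tumour region at 37 degrees were near or under 1 FPKM, where adding 1 FPKM compresses a difference. With 0.1 FPKM added in its place Il6 was past 2-fold in all 3 pairs. Map3k8, a kinase that relays inflammatory signals to MAP kinases, was at 94.1 FPKM at 37 degrees, against 14.3 FPKM at 6 degrees in the tumour pair and at 15.9 to 24.5 FPKM in the other 4 libraries.

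Of 24 interferon-stimulated genes tested, 5 were at least 2-fold higher in the tumour pair, beside 1.96% of all genes. All 5 were within 1 of 0 in both other pairs, beside 1.35% of all genes in that class. The other 19 were not past 2-fold. The list median was 0.20 in the tumour pair, 0.09 in the non-tumour pair and 0.08 in the normal diet pair. Mx2, of a family of antiviral dynamin-like GTPases, is annotated in mouse as a polymorphic pseudogene. Its transcript was at 49.8 FPKM at 37 degrees, against 4.50 FPKM at 6 degrees in the tumour pair. Mx2 had 7.94 FPKM at 37 degrees and 4.07 FPKM at 6 degrees in non-tumour cells, and 5.24 FPKM at 37 degrees and 5.32 FPKM at 6 degrees in normal diet cells. Ifit1, a sensor of foreign RNA caps, was at 203 FPKM at 37 degrees, against 44.9 FPKM at 6 degrees in the tumour pair and at 27.2 to 50.9 FPKM in the other 4 libraries. Isg15, a ubiquitin-like modifier, had a tumour pair difference of 1.31, and Ifit3 one of 1.21. Reads of Ifit3 and its near-identical neighbour Ifit3b, also higher in the tumour pair alone, could have been divided between the copies. Outside the list, the interferon-inducible GTPase genes Iigp1 (difference 2.05), Irgm1 (1.09) and Gbp5 (1.10) and the DNA exonuclease gene Trex1 (1.45) were higher in the tumour pair alone and were picked out after their values were seen. Iigp1 was at 584 FPKM at 37 degrees, against 140.0 FPKM at 6 degrees in the tumour pair and at 123 to 165 FPKM in the other 4 libraries.

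**Figure D2:**
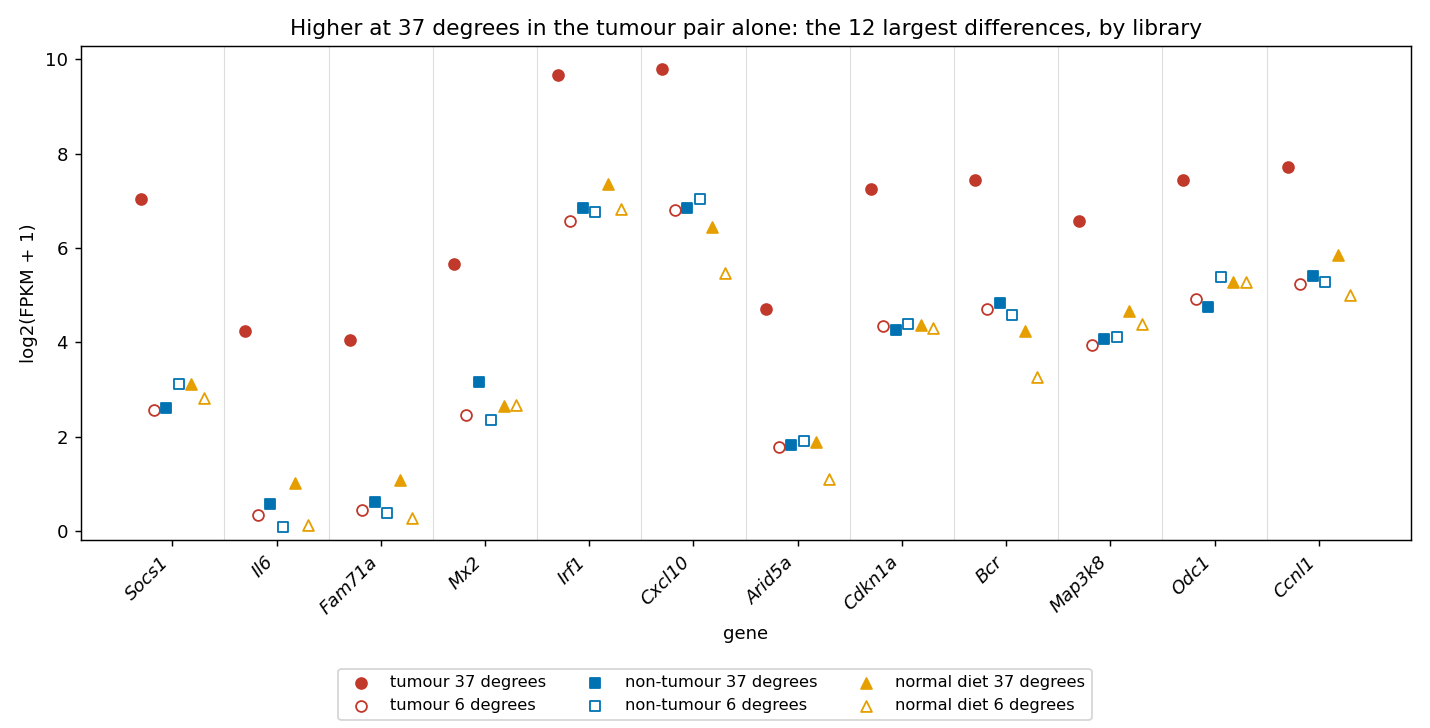
Values of log2(FPKM + 1) in each of the 6 libraries for the 12 genes with the largest differences among those higher at 37 degrees in the tumour pair alone; filled symbols are libraries at 37 degrees, open symbols libraries at 6 degrees, and each symbol is 1 library. The filled circle of the tumour region at 37 degrees is the highest of the 6 for all 12 genes, and the open circle of the tumour region at 6 degrees lies near the other pairs.

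The promoters of Socs1, Irf1, Cxcl10 and Il6 are shown because these genes had some of the 12 largest differences among those higher in the tumour pair alone, and because binding sites for interferon and NF-kB factors are the best known features of such promoters. Each sequence gives the 250 bases before the transcription start in the direction of transcription, from RefSeq on GRCm38.p6, with matches to 4 motifs in capitals: the interferon-stimulated response element (ISRE, a pair of GAAA runs with 2 bases of any kind between them), the interferon gamma-activated site (GAS, TTCNNNGAA), the AP-1 site (TGANTCA) and the kappa B site.
Socs1 (chr16:10785537-10785786, minus strand): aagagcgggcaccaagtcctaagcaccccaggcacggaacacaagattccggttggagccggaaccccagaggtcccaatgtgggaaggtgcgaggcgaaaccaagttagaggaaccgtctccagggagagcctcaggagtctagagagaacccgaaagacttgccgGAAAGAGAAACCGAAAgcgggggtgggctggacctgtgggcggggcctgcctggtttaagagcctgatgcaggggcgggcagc
Irf1 (chr11:53769764-53770013, plus strand, the more upstream of 2 starts): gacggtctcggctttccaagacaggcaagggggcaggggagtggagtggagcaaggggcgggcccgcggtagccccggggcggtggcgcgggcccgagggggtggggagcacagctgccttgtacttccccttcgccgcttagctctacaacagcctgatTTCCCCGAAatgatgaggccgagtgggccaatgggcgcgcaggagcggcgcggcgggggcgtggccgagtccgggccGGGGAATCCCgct
Cxcl10 (chr5:92348890-92349139, minus strand): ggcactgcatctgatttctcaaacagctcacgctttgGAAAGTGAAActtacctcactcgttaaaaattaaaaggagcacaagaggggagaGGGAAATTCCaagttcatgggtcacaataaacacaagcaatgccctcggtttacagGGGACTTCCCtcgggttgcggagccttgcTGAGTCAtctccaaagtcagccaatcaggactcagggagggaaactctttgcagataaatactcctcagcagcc
Il6 (chr5:30012864-30013113, plus strand): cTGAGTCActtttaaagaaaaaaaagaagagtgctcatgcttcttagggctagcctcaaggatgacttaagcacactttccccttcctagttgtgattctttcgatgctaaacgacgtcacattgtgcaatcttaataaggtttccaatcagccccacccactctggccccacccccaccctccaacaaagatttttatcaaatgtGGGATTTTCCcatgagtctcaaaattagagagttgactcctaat
Socs1 has 2 overlapping ISRE matches, the first from 83 bases before the start. Irf1 has a GAS match and, 13 to 4 bases before the start, a kappa B match. Cxcl10 has an ISRE match, 2 kappa B matches and an AP-1 match. Il6 has a kappa B match 44 to 35 bases before its start and an AP-1 match near the far end of the window. A match is a run of letters and was not measured as bound in these cells.

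Over windows from 250 bases before to 50 bases after the start, on both strands, with overlapping matches to different motifs counted for each, 15 of the 124 genes higher in the tumour pair alone that had a promoter in the RefSeq table held an ISRE (12.1%), as against 3.76% of 8828 tested genes. Besides Socs1 and Cxcl10 these were Ifit1, Ifit3, Ifit3b, Isg15, Gbp5, Irgm1, Ifi205, Myd88, Vegfa, Ncoa7, Pnrc1, Glul and Gm12216. An AP-1 match was present in 13.7% of the 124 and 6.14% of all tested. A GAS match was present in 13.7% and 8.37%, and a kappa B match in 10.5% and 6.15%. Genes lower in the tumour and non-tumour pairs but not with normal diet had an AP-1 match in 15.5% of 84 promoters. Those lower in all 3 pairs had an AP-1 match in 10.4% of 202 promoters and a kappa B match in 8.42%. The heat shock element (GAANNTTC) was found in 5.65% of the 124 and 7.13% of all tested, and the cyclic AMP response element (CRE, TGACGTCA) in 4.84% and 3.69%. The genes higher in both the tumour and the normal diet pair differed in this description, with an ISRE in 5.56% of 36 promoters, a CRE in 11.1% and a kappa B match in 16.7%. A GAS match was in 16.7% of these 36 as well, above the 13.7% of the 124, and an AP-1 match in 8.33%. Genes lower in the tumour pair alone had the cell-cycle homology region (CHR, TTTGAA) in 33.8% of 71 promoters. It was in 21.8% of the 124 and 13.9% of all tested. Among the other lower genes it was in 23.8% of the 84 and 19.3% of the 202 promoters. These shares were not tested against chance, and of 36 and 71 promoters 1 gene is a large step.

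**Figure D3:**
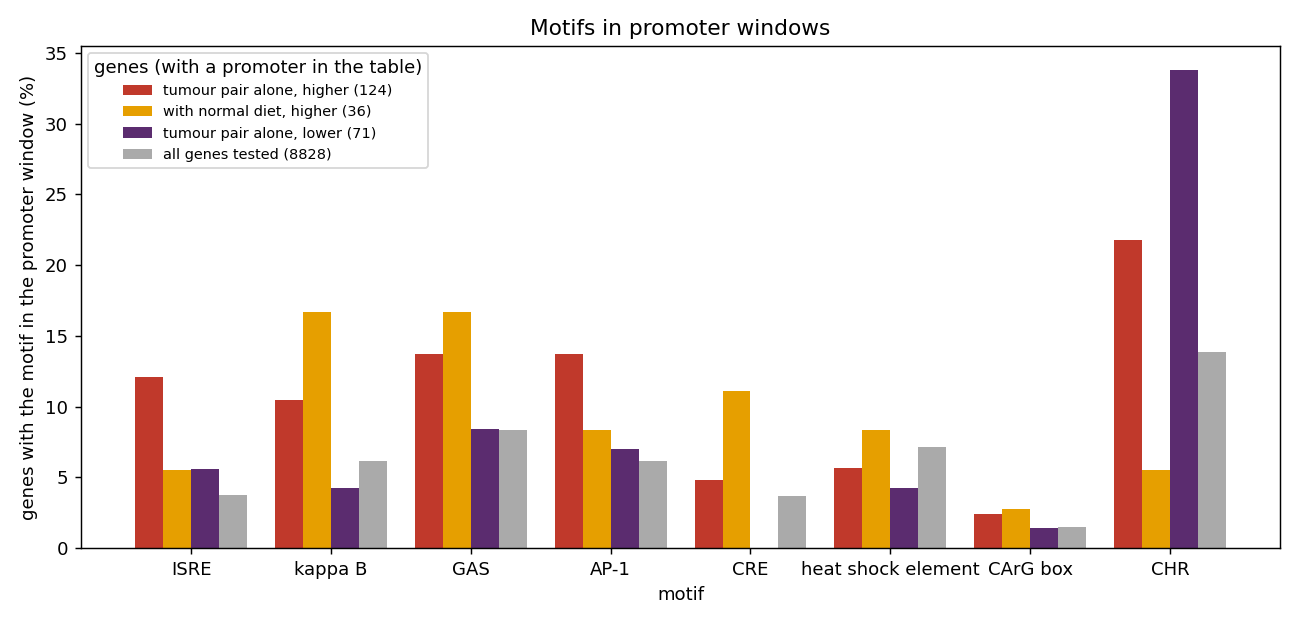
Share of promoter windows (percent, vertical axis) that held each motif (horizontal axis), for genes higher in the tumour pair alone, genes higher in the tumour and normal diet pairs, genes lower in the tumour pair alone and all genes tested, with the number of promoters in the legend. The ISRE bar is highest for genes higher in the tumour pair alone (12.1%) and the CHR bar for genes lower in the tumour pair alone (33.8%).

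Some genes of messenger RNA decay and of NF-kB feedback were also higher in the tumour pair alone. Over all genes tested 1.96% were higher and 4.29% lower in the tumour pair, and 1.35% were higher in that pair alone. Of 11 genes of mRNA decay and antiproliferative early genes, 6 were at least 2-fold higher and 1 lower in the tumour pair, with a list median of 1.46, against 0.01 in the non-tumour pair and 0.39 in the normal diet pair. Zc3h12a, the RNase that degrades Il6 mRNA in mouse, was at 7.31 FPKM at 37 degrees, against 2.02 FPKM at 6 degrees in the tumour pair and at 1.19 to 1.90 FPKM in the other 4 libraries. Arid5a, which in mouse stabilizes Il6 mRNA, was at 25 FPKM at 37 degrees, against 2.43 FPKM at 6 degrees in the tumour pair and at 1.14 to 2.73 FPKM elsewhere. Both therefore had their highest value in the tumour library at 37 degrees. Tob1 and Btg1, antiproliferative proteins that recruit deadenylases, differed by 2.21 and 1.67 in the tumour pair, and the decay factor gene Zfp36l1 by 2.17. Their relatives Btg2 and Zfp36 were instead shared with the normal diet pair. Btg3, of the same family, was the 1 lower gene, at 2.16 FPKM at 37 degrees, against 6.29 FPKM at 6 degrees in the tumour pair and at 5.16 to 7.62 FPKM in the other 4 libraries. Of 17 genes of NF-kB subunits and feedback inhibitors 3 were higher, and 2 of them in the tumour pair alone. Tnfaip3, the ubiquitin-editing brake on NF-kB, differed by 1.37 in the tumour pair, -0.09 in the non-tumour pair and 0.07 in the normal diet pair. Nfkbia, the inhibitor that holds NF-kB in the cytoplasm, differed by 1.16 in the tumour pair, 0.05 in the non-tumour pair and -0.21 in the normal diet pair. The list median was 0.13, and the subunits themselves were not past 2-fold. Ptgs2, the inducible cyclooxygenase of prostaglandin synthesis, was at 7.19 FPKM at 37 degrees, against 0.725 FPKM at 6 degrees in the tumour pair. The other pairs had 0.568 FPKM at 37 degrees and 0.211 FPKM at 6 degrees for non-tumour cells and 0.638 FPKM at 37 degrees and 0.147 FPKM at 6 degrees for normal diet cells. It was the 1 higher gene of 12 adhesion and prostaglandin genes. With 0.1 FPKM added in place of 1, Ptgs2 was past 2-fold in all 3 pairs.

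Cdkn1a, the cyclin-dependent kinase inhibitor that p53 induces (chromosome 17, 29090976 to 29100727), was at 152 FPKM at 37 degrees, against 19.5 FPKM at 6 degrees in the tumour pair. The same gene was at 18.2 to 19.98 FPKM in the other 4 libraries, so 5 libraries were alike and 1 stood apart. Of 20 p53 targets and cell-cycle inhibitors 5 were higher and 0 lower in the tumour pair, beside 1.96% of all genes higher. Cdkn1a and Plk3 (difference 1.63) were the 2 in the tumour pair alone, beside 1.35% of all genes. Bcr, whose protein regulates small GTPases, was at 173 FPKM at 37 degrees, against 25 FPKM at 6 degrees in the tumour pair. Non-tumour cells had 27.4 FPKM at 37 degrees and 22.8 FPKM at 6 degrees, and normal diet cells 17.8 FPKM at 37 degrees and 8.60 FPKM at 6 degrees. The normal diet pair differed in Bcr by 0.97, just under the threshold. Fam71a was at 15.4 FPKM at 37 degrees, against 0.364 FPKM at 6 degrees in the tumour pair and at 0.210 to 1.13 FPKM in the other 4 libraries.

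Odc1 and Ccnl1 were among the 12 largest differences, and the genes set beside them here were picked one by one after their values were seen, from no list and with no share over all genes. Odc1, the rate-limiting enzyme of polyamine synthesis, was at 171 FPKM at 37 degrees, against 29.2 FPKM at 6 degrees in the tumour pair. It was at 25.8 FPKM at 37 degrees and 40.6 FPKM at 6 degrees for non-tumour cells, and at 37.7 FPKM at 37 degrees and 38.0 FPKM at 6 degrees for normal diet cells. Azin1, which protects that enzyme from its antizyme, was at 28.9 FPKM at 37 degrees, against 13.4 FPKM at 6 degrees in the tumour pair and at 11.7 to 13.3 FPKM elsewhere. Both were thus highest in the tumour library at 37 degrees, and for both the other 5 libraries lay together. Amd1, a further enzyme of the pathway, was listed at 55.7 FPKM at 37 degrees, against 13 FPKM at 6 degrees, but its near-identical copy Amd2 was listed the other way round, and the sum of both copies was 56.5 FPKM at 37 degrees and 40.7 FPKM at 6 degrees, a difference of 0.46, with 0.46 in the non-tumour pair. Amd1 therefore has no clear place among the genes of the tumour pair alone. Ccnl1, a cyclin of splicing complexes, was at 210.3 FPKM at 37 degrees, against 36.5 FPKM at 6 degrees in the tumour pair and at 31.1 to 56.3 FPKM in the other 4 libraries. The splicing kinase gene Clk1 (difference 1.08), the splicing factor genes Srsf7 (1.19) and Hnrnph1 (1.07), the helicase gene Ddx5 (1.001), the transcript termination gene Pcf11 (1.59), the phosphatase regulator Ppp1r10 (1.97) and the inhibitor of transcription elongation Hexim1 (1.52) were higher in the tumour pair alone. Hexim1 was at 13.4 FPKM at 37 degrees, against 4.02 FPKM at 6 degrees in the tumour pair and at 3.47 to 3.89 FPKM elsewhere. The small nucleolar RNA host genes Snhg1 (1.62) and Snhg12 (1.64) were in the same class.

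Heat shock chaperones were divided between classes. Of 20 tested, 7 were at least 2-fold higher in the tumour pair and 0 lower, beside 1.96% of all genes higher. Of the 7, 4 were in the tumour pair alone, beside 1.35% of all genes. The list median of 0.22 was near those of the non-tumour (0.20) and normal diet (0.30) pairs. Hspa1a and Hspa1b, near-identical genes for inducible HSP70 whose reads could have been divided between them, summed to 85.6 FPKM at 37 degrees and 11.6 FPKM at 6 degrees in the tumour pair. Their sum was 243 FPKM at 37 degrees and 6.70 FPKM at 6 degrees in the non-tumour pair, and 334 FPKM at 37 degrees and 5.61 FPKM at 6 degrees for normal diet cells. The warm tumour library was thus the lowest of the 3 at 37 degrees, with a summed difference of 2.79, as against 4.99 in the non-tumour and 5.66 in the normal diet pair. Dnajb1, a co-chaperone of HSP70, had its largest difference in the tumour pair instead. It was at 130.5 FPKM at 37 degrees, against 23.5 FPKM at 6 degrees in the tumour pair. For non-tumour cells Dnajb1 was at 23.5 FPKM at 37 degrees and 25.5 FPKM at 6 degrees, and for normal diet cells at 39.6 FPKM at 37 degrees and 20.7 FPKM at 6 degrees. The co-chaperone genes Bag3 (difference 1.28) and Dnaja1 (1.22) and the inducible HSP90 gene Hsp90aa1 (1.04) were likewise past 2-fold in the tumour pair alone, although Hsp90aa1 differed by 0.46 in the non-tumour pair and 0.61 in the normal diet pair.

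Of 14 genes of the integrated stress response, in which cells that slow translation make stress factors, 3 were higher in the tumour pair and 0 lower. The list median was 0.06. For this and the next lists, the shares over all genes were 1.96% higher, 4.29% lower and 1.35% higher in the tumour pair alone. Atf4, its central transcription factor, was at 172 FPKM at 37 degrees, against 50.9 FPKM at 6 degrees in the tumour pair and at 43.8 to 68.2 FPKM in the other 4 libraries, and its target Ddit3 differed by 1.66 in the tumour pair and by 0.54 in the non-tumour pair and -0.05 in the normal diet pair. The third, Ppp1r15a, was shared with normal diet. None of 18 genes of ER chaperones and the unfolded protein response was past 2-fold, with a list median of 0.17. Of 15 circadian clock genes 5 were higher, and the repressor genes Per1 (1.41), Per2 (1.01) and Cry2 (1.18) were so in the tumour pair alone. Per2 was at 1.86 FPKM at 37 degrees, against 0.417 FPKM at 6 degrees in the tumour pair, and Cry2 at 8.28 and 3.08 FPKM. Normal diet cells had more at 37 and 6 degrees, 2.12 and 2.58 FPKM of Per2 and 9.32 and 8.91 FPKM of Cry2. For both genes the tumour library at 6 degrees was the lowest of all. Of 20 hypoxia and glycolysis genes 3 were higher. Vegfa, the vascular endothelial growth factor, was at 13.1 FPKM at 37 degrees, against 4.41 FPKM at 6 degrees in the tumour pair and at 3.77 to 6.14 FPKM elsewhere, and Hk2, a hexokinase, was at 11 FPKM at 37 degrees, against 2.07 FPKM at 6 degrees in the tumour pair and at 0.916 to 2.11 FPKM elsewhere. Id2 and Id3, targets of BMP signalling that block differentiation factors, differed by 1.30 and 1.15 and were the 2 higher genes of 20 TGF-beta and BMP targets. Of 14 CC chemokines 5 were higher and 2 lower. Ccl2, the monocyte chemoattractant, was at 818 FPKM at 37 degrees, against 394 FPKM at 6 degrees in the tumour pair. Ccl2 had 472 FPKM at 37 degrees and 411 FPKM at 6 degrees in non-tumour cells, and 196 FPKM at 37 degrees and 98.0 FPKM at 6 degrees in normal diet cells. It counted as tumour pair alone by a margin too small to separate it from normal diet, where its difference was 0.996. In the same pair Ccl12 differed by 1.59, with 0.22 in the non-tumour pair and -0.25 in the normal diet pair. It was at 14.5 FPKM at 37 degrees, against 4.14 FPKM at 6 degrees in the tumour pair. The other 4 libraries had 0.145 to 0.496 FPKM, too low for a 2-fold difference once 1 FPKM is added.

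Taken as a class, the 156 genes had a median difference of 1.31 in the tumour pair, 0.10 in the non-tumour pair and 0.25 in the normal diet pair. The tumour library at 37 degrees was the highest of the 6 for 149 of them (95.5%). The tumour library at 6 degrees lay within the range of the other 4 libraries for 100 (64.1%). Because the class was chosen on these same values, the choice favours such medians and such a rank, and they are no check on it. Within 0.5 of 0 in both other pairs were 89. With the same sign in both other pairs were 67, and with the opposite sign in both 19. Of the 156, 29 had a tumour pair mean under 5 FPKM. With 0.1 FPKM added in place of 1, 134 of the 156 were still in the class, and 131 after quantile normalization. At 0.1 FPKM Arid5a, Bcr, Fam71a, Hk2, Gbp5, Ccl2 and Maff were shared with normal diet. After quantile normalization Il6, Fam71a, Bcr and Nr4a3 were shared with normal diet, and Ifit3, Irgm1, Nfkbia, Id3, Clk1, Hnrnph1, Ddx5, Hsp90aa1, Ccl2, Klf9 and Mafk were no longer past 2-fold in the tumour pair. Macrophage marker sums were 941 FPKM at 37 degrees and 2333 FPKM at 6 degrees in the tumour pair. They were lower at 37 degrees in the other pairs as well, and by more. Non-tumour cells had 48.6 FPKM at 37 degrees and 743 FPKM at 6 degrees, and normal diet cells 53.5 FPKM at 37 degrees and 592 FPKM at 6 degrees. The tumour library at 37 degrees thus held more macrophage transcripts than any library of the other pairs. Endothelial marker sums were 1095 FPKM at 37 degrees and 5245 FPKM at 6 degrees for non-tumour cells and 484 FPKM at 37 degrees and 2341 FPKM at 6 degrees for normal diet cells. Their part in these differences was not tested.

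Immediate early transcription factors, the genes best known from warm digestion, were mostly shared with the normal diet pair. Of 25 tested, 22 were higher in the tumour pair, 0 in the non-tumour pair and 19 in the normal diet pair. Over all genes 1.96% were higher in the tumour pair, 0.225% in the non-tumour pair and 0.779% in the normal diet pair. The share higher in the tumour pair alone was 1.35%. List medians were 2.57 in the tumour pair, 0.24 in the non-tumour pair and 1.73 in the normal diet pair. Fosb, a subunit of AP-1, had the largest difference of all genes in the tumour pair (5.49). It was at 248 FPKM at 37 degrees, against 4.53 FPKM at 6 degrees in the tumour pair. The other pairs had 7.28 FPKM at 37 degrees and 4.03 FPKM at 6 degrees for non-tumour cells and 50.4 FPKM at 37 degrees and 3.77 FPKM at 6 degrees for normal diet cells. Atf3, a stress-induced factor, was at 1285 FPKM at 37 degrees, against 32.8 FPKM at 6 degrees in the tumour pair. Non-tumour cells had 35.1 FPKM at 37 degrees and 23.9 FPKM at 6 degrees, and normal diet cells 179 FPKM at 37 degrees and 11.2 FPKM at 6 degrees. In both genes the tumour library at 37 degrees was the highest, the normal diet library at 37 degrees came next and the other 4 were low. Nfkbiz, a nuclear regulator of NF-kB targets, was at 487 FPKM at 37 degrees, against 16.2 FPKM at 6 degrees in the tumour pair and at 57.5 FPKM at 37 degrees and 8.09 FPKM at 6 degrees for normal diet cells. Klf4, a zinc finger factor, differed by 3.97 in the tumour pair, -0.02 in the non-tumour pair and 1.76 in the normal diet pair. Nr4a1, an orphan nuclear receptor, was the reverse in size, with 3.15 in the tumour pair and 4.49 in the normal diet pair. The 3 immediate early genes of the tumour pair alone were Nr4a3 (2.18), Ier5 (1.90) and Maff (1.479), and Nr4a3 differed by 0.92 in the normal diet pair. With 0.1 FPKM added in place of 1, Nr4a3 was past 2-fold in all 3 pairs and Maff was shared with normal diet, so that Ier5 alone of these was left. The chemokine gene Cxcl1, which attracts neutrophils, was at 1288 FPKM at 37 degrees, against 88.7 FPKM at 6 degrees in the tumour pair and at 137 FPKM at 37 degrees and 21.7 FPKM at 6 degrees for normal diet cells. Socs3, the inhibitor of IL-6 family signals, differed by 3.46 in the tumour pair, 0.32 in the non-tumour pair and 2.72 in the normal diet pair, and so was shared with normal diet while Socs1 was not. The zinc-binding metallothioneins Mt1 (1.84) and Mt2 (1.90) were also shared with normal diet.

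Only 8 higher genes were shared with the non-tumour pair and not with normal diet. Mgp, an inhibitor of calcification, was at 54.2 FPKM at 37 degrees, against 10.6 FPKM at 6 degrees in the tumour pair. It was at 11.3 FPKM at 37 degrees and 3.84 FPKM at 6 degrees for non-tumour cells, and at 7.37 FPKM at 37 degrees and 12 FPKM at 6 degrees for normal diet cells. Tmem100, a BMP-responsive membrane protein gene, differed by 2.05 in the tumour pair, 1.38 in the non-tumour pair and -0.68 in the normal diet pair, and Mfap4, of elastic fibres, by 1.89 in the tumour pair, 1.64 in the non-tumour pair and 0.38 in the normal diet pair. F3, tissue factor of the clotting cascade, was also among the 8. Besides Hspa1a and Hspa1b, the potassium channel subunit gene Kcne4 was the 1 gene higher in all 3 pairs, with 1.41 in the tumour pair, 1.45 in the non-tumour pair and 1.67 in the normal diet pair.

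Endothelial and macrophage genes were lower at 37 degrees in the tumour pair, and in the other pairs too. Of 20 sinusoidal endothelial markers 19 were at least 2-fold lower in the tumour pair, beside 4.29% of all genes, and 19 in each other pair, with medians of -2.17 in the tumour pair, -2.92 in the non-tumour pair and -3.86 in the normal diet pair. Kdr, the receptor for VEGF, was at 11.5 FPKM at 37 degrees, against 86.6 FPKM at 6 degrees in the tumour pair. For non-tumour cells Kdr was at 19.5 FPKM at 37 degrees and 187 FPKM at 6 degrees, and for normal diet cells at 2.2 FPKM at 37 degrees and 80.2 FPKM at 6 degrees. Lrg1, a glycoprotein that acts in vessel growth, had a tumour pair difference of -2.92, and Sox18, a factor of vessel development, one of -2.82. Of 16 macrophage and Kupffer cell markers 10 were lower in the tumour pair, with a median of -1.32, as against -3.40 in the non-tumour pair and -2.77 in the normal diet pair. Lyz2, the lysozyme of myeloid cells, was at 285 FPKM at 37 degrees, against 857 FPKM at 6 degrees in the tumour pair. Lyz2 had 16.6 FPKM at 37 degrees and 204 FPKM at 6 degrees in non-tumour cells, and 15.4 FPKM at 37 degrees and 175 FPKM at 6 degrees in normal diet cells. The tumour library at 37 degrees thus kept more Lyz2 than either other library at 37 degrees. Of 7 MHC class II presentation genes 5 were lower in the tumour pair, with a median of -1.15, as against -3.47 in the non-tumour pair and -2.47 in the normal diet pair. In bulk RNA of sorted cells, fewer cells of a type and less RNA per cell cannot be told apart.

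The 4 libraries of the other pairs allow a test across all genes. Their differences did not enter the 2-fold threshold of the tumour pair, but the filter on low values averaged all 6 libraries, and the division into genes of the tumour pair alone and shared genes used them. By limma on log2(FPKM + 1) with liver source as covariate, 449 genes (3.88% of 11558) fell and 23 (0.199%) rose at 37 degrees over both other pairs, at an adjusted p under 0.05. Of the 496 genes lower in the tumour pair 288 (58.1%) were among those that fell. Of the 227 higher genes 6 (2.6%) were among those that rose: Hspa1a, Hspa1b, Kcne4, Gadd45b, Hes1 and Gem. Gem, a small GTPase gene, rose by 0.59 ± 0.10 over the other pairs (SE, adjusted p = 0.0425), and was in the class of the tumour pair alone because neither pair reached 2-fold. Il1b fell over the other pairs by 1.68 ± 0.22 (adjusted p = 0.0191), the opposite of its tumour pair difference of 1.08. Macrophage marker sums also fell at 37 degrees in both other pairs, to 48.6 FPKM for non-tumour and 53.5 FPKM for normal diet cells. The sum was 941 FPKM in the tumour library at 37 degrees, and the part of macrophages in the Il1b values was not tested. The fit had 1 residual degree of freedom, 5.17 with the prior. That 1 is how far the non-tumour and normal diet pairs differ in their temperature effect. Its p-values therefore set the mean effect against that difference and the prior, and the difference may be technical or come from the liver source. The 23 higher genes became 5 without the intensity trend in the prior and 15 after median-ratio rescaling, and without the filter on low values neither direction had a call.

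The genes shared by the tumour and non-tumour pairs on the lower side included the myeloid genes S100a8, Pglyrp1 and Itgal. S100a8, a calcium-binding protein of neutrophils, was at 3.66 FPKM at 37 degrees, against 33.6 FPKM at 6 degrees in the tumour pair. The other pairs had 0 FPKM at 37 degrees and 7.01 FPKM at 6 degrees for non-tumour cells and 0.523 FPKM at 37 degrees and 0.217 FPKM at 6 degrees for normal diet cells. Napsa, an aspartic protease gene, differed by -2.38 in the tumour pair, -1.23 in the non-tumour pair and -0.51 in the normal diet pair. The 5 shared with normal diet alone were Gpnmb, Csf2rb, Snhg20, Rps19-ps3 and Zfp69. Gpnmb, a glycoprotein of macrophages, was at 1.27 FPKM at 37 degrees, against 8.49 FPKM at 6 degrees in the tumour pair and at 0.959 FPKM at 37 degrees and 5.61 FPKM at 6 degrees for normal diet cells.

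Genes lower in the tumour pair alone were mostly of low level, and several of those with the largest differences are known from monocytes and other leukocytes. Ly6c2, a surface protein of inflammatory monocytes, was at 0.738 FPKM at 37 degrees, against 8.3 FPKM at 6 degrees in the tumour pair. Non-tumour cells had 0 FPKM at 37 degrees and 0.865 FPKM at 6 degrees, and normal diet cells 0.238 FPKM at 37 degrees and 0.197 FPKM at 6 degrees. Its relative Ly6i was at 0.0816 FPKM at 37 degrees, against 5.61 FPKM at 6 degrees in the tumour pair, and reads could have been divided between members of this gene family. Ccr2, the receptor by which monocytes follow Ccl2, was at 0.994 FPKM at 37 degrees, against 5.91 FPKM at 6 degrees in the tumour pair and at 0.0138 to 0.697 FPKM in the other 4 libraries. In all 3 the tumour library at 6 degrees was the only one well above 1 FPKM. They passed the filter on low values only through that library. With the other 4 libraries under 1 FPKM, adding 1 FPKM kept both other pairs under 2-fold whatever their values. Their place in the class and this rank were therefore fixed by the choice of genes. The same holds for Ms4a4c, Nkg7, Susd3 and Tifab, named below. Chil3, a chitinase-like protein of myeloid cells, differed by -2.40, Ms4a4c by -2.21 and S100a9, the partner of S100a8, by -1.97. S100a9 was at 4.94 FPKM at 37 degrees, against 22.3 FPKM at 6 degrees in the tumour pair. It was at 1.04 FPKM at 37 degrees and 2.98 FPKM at 6 degrees for non-tumour cells, and at 0 FPKM at 37 degrees and 0.754 FPKM at 6 degrees for normal diet cells. Nkg7, of the granules of killer lymphocytes, was at 0.904 FPKM at 37 degrees, against 6.29 FPKM at 6 degrees in the tumour pair and at 0 to 0.515 FPKM elsewhere. Emilin2 (-1.92), an extracellular matrix glycoprotein gene, Susd3 (-1.85) and Tifab (-1.69) had the same shape. Leukocyte genes did not all go this way. Of 3 T and NK cell markers tested Nkg7 was the 1 lower gene and Cd2 (1.05) the 1 higher, with Lck at 0.66. The median of these markers was 0.66, and over all genes 1.96% were higher and 4.29% lower. The neutrophil markers summed to 13.5 FPKM at 37 degrees and 64.5 FPKM at 6 degrees in the tumour pair, with 7 of 11 listed markers under 1 FPKM at 37 degrees and 6 at 6 degrees, and their part in these differences was not tested.

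**Figure D4:**
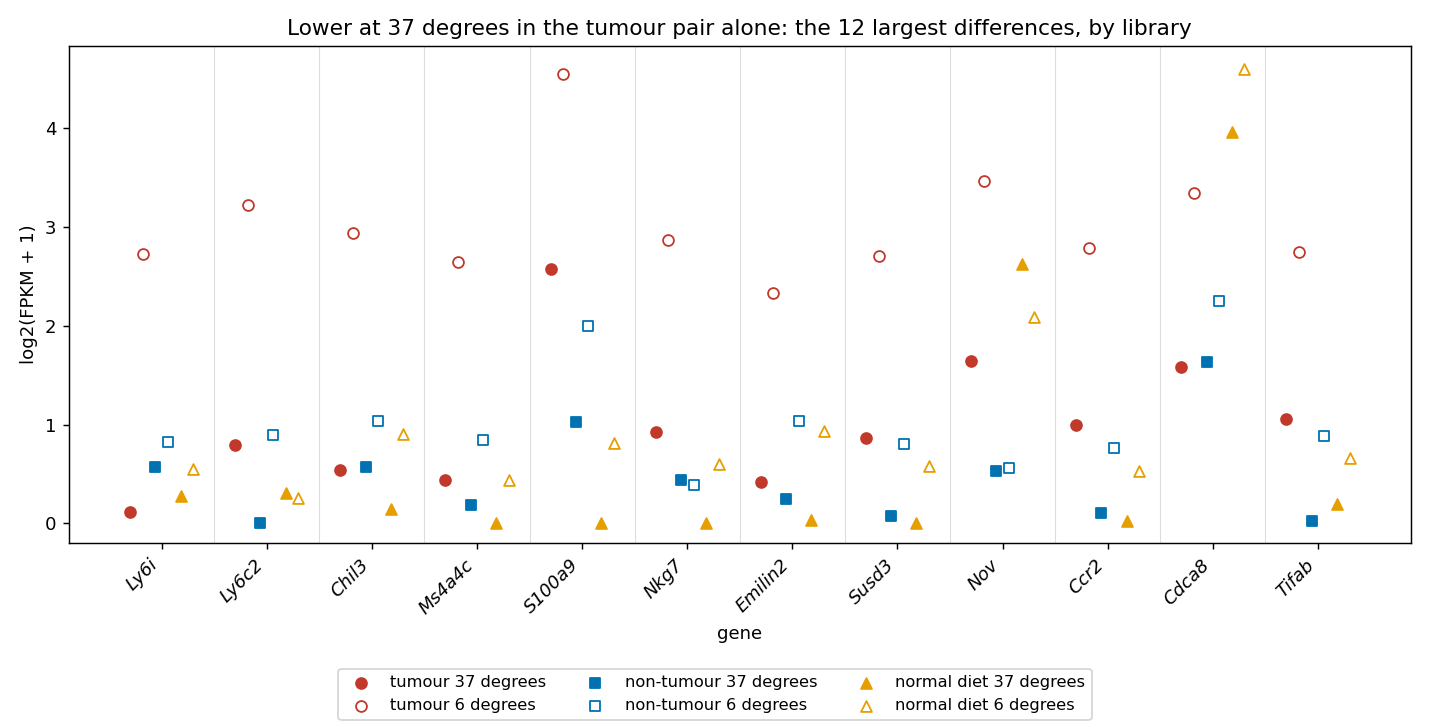
Values of log2(FPKM + 1) in each of the 6 libraries for the 12 genes with the largest differences among those lower at 37 degrees in the tumour pair alone; filled symbols are libraries at 37 degrees, open symbols libraries at 6 degrees, and each symbol is 1 library. For 11 of the 12 genes the open circle of the tumour region at 6 degrees is the highest of the 6, while for Cdca8 the normal diet libraries are higher.

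Of the 89 genes of this class, 72 (80.9%) had a tumour pair mean under 5 FPKM, and in 33 (37.1%) the 4 libraries of the other pairs were all under 2 FPKM. The tumour library at 6 degrees was the highest of the 6 for 56 (62.9%). This rank and the medians given next are favoured by the choice of the class on the same values. The median difference was -1.25 in the tumour pair, -0.60 in the non-tumour pair and -0.35 in the normal diet pair, and 68 of the 89 had the same sign in both other pairs. With 0.1 FPKM added in place of 1, only 34 of the 89 stayed in the class, and of the 12 in the plot of lower genes by library only Ly6i, Nov and Cdca8 did, so membership of this class rests largely on how low values are treated.

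Proliferation genes were lower in the tumour pair, 13 of 23 with 0 higher, beside 4.29% of all genes lower. Of the 13, 4 were in the tumour pair alone, beside 0.77% of all genes. The list median was -1.12 in the tumour pair, -0.87 in the non-tumour pair and -0.30 in the normal diet pair, with 9 genes lower in the non-tumour pair and 0 in the normal diet pair. Top2a, the topoisomerase of dividing cells, was at 1.87 FPKM at 37 degrees, against 6.82 FPKM at 6 degrees in the tumour pair. For non-tumour cells Top2a was at 1.23 FPKM at 37 degrees and 2.98 FPKM at 6 degrees, and for normal diet cells at 14.5 FPKM at 37 degrees and 19.3 FPKM at 6 degrees. With 0.1 FPKM added it was shared with the non-tumour pair. Cdca8, a subunit of the chromosomal passenger complex, was at 1.99 FPKM at 37 degrees, against 9.15 FPKM at 6 degrees in the tumour pair. Cdca8 had 2.11 FPKM at 37 degrees and 3.76 FPKM at 6 degrees in non-tumour cells, and 14.6 FPKM at 37 degrees and 23.2 FPKM at 6 degrees in normal diet cells. In both genes the normal diet libraries were at least as high as the tumour library at 6 degrees, and the lowest libraries were those at 37 degrees of the high fat diet livers. Nov, a secreted matricellular protein of the CCN family, was at 2.11 FPKM at 37 degrees, against 9.998 FPKM at 6 degrees in the tumour pair. The other pairs had 0.445 FPKM at 37 degrees and 0.472 FPKM at 6 degrees for non-tumour cells and 5.18 FPKM at 37 degrees and 3.26 FPKM at 6 degrees for normal diet cells.

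A few genes lower in the tumour pair alone were not near the floor, and they were picked out after their values were seen. Neat1, the long non-coding RNA of nuclear paraspeckles, was at 5.48 FPKM at 37 degrees, against 17.2 FPKM at 6 degrees in the tumour pair. Non-tumour cells had 14.4 FPKM at 37 degrees and 16.6 FPKM at 6 degrees, and normal diet cells 13 FPKM at 37 degrees and 16.4 FPKM at 6 degrees. Here the tumour library at 37 degrees was the one that stood apart, below the other 5. Nr1h3, the liver X receptor alpha, which senses oxysterols, was at 11.5 FPKM at 37 degrees, against 27.4 FPKM at 6 degrees in the tumour pair. It was at 8.2 FPKM at 37 degrees and 13.8 FPKM at 6 degrees for non-tumour cells, and at 6.65 FPKM at 37 degrees and 9.28 FPKM at 6 degrees for normal diet cells. In this gene the tumour library at 6 degrees was the one above the rest. At a low level, Ass1, an enzyme of the urea cycle, was listed at 0 FPKM at 37 degrees, against 1.82 FPKM at 6 degrees in the tumour pair and was the 1 lower gene of 17 hepatocyte markers, whose list median was 0.34 in the tumour pair, -0.90 in the non-tumour pair and -2.25 in the normal diet pair.

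No gene of the stellate cell, myofibroblast and collagen lists was past 2-fold in the tumour pair. Of 20 stellate cell markers 0 were higher or lower, with a median of 0.39 in the tumour pair, 0.47 in the non-tumour pair and 0.25 in the normal diet pair. Of 18 myofibroblast genes 0 were past 2-fold, with a median of 0.09, and of 15 collagen genes 0, with a median of -0.35 in the tumour pair, 0.39 in the non-tumour pair and 0.07 in the normal diet pair. Of 16 smooth muscle contraction genes Rrad (1.43) was higher and Actg2 (-1.15), an enteric smooth muscle actin, lower, the second in the tumour pair alone. Among the matrix proteases, Adamts4 (1.63) and Adamts1 (1.11), which cleave proteoglycans, were higher and shared with normal diet. Mmp12, the macrophage elastase, was lower (-1.49). None of 24 cytosolic ribosomal protein genes (median 0.14) and none of 20 oxidative phosphorylation genes (median -0.009) was past 2-fold.

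**Figure D5:**
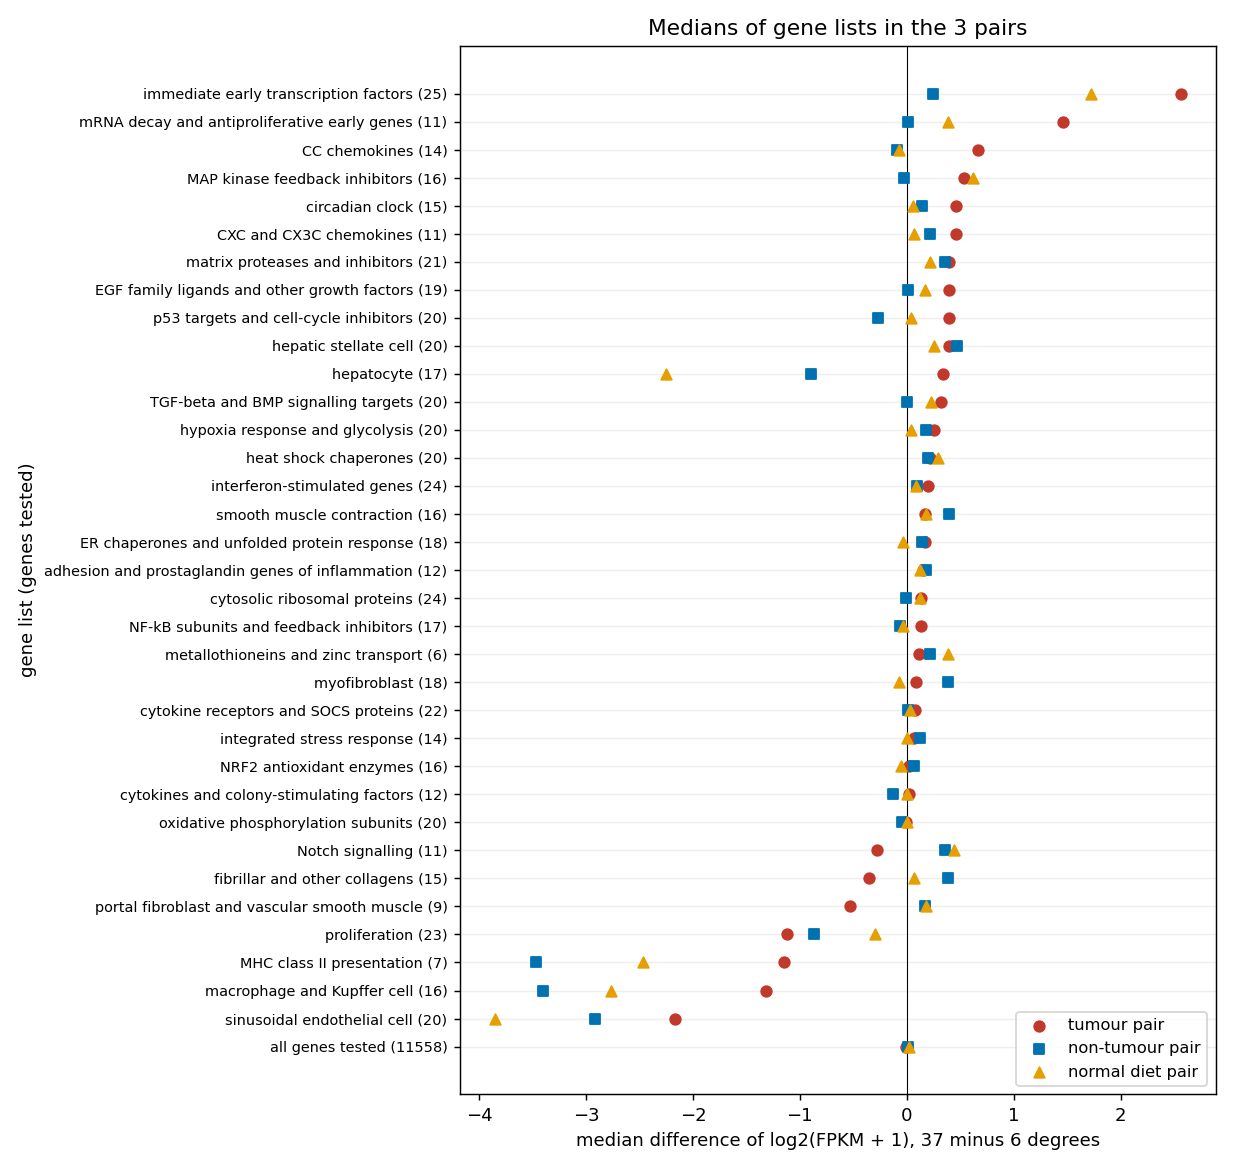
Median difference of log2(FPKM + 1), 37 minus 6 degrees (horizontal axis), over the tested genes of each list (vertical axis, number of genes in brackets) in the tumour (circles), non-tumour (squares) and normal diet (triangles) pairs; lists with under 6 tested genes are left out. The circle of the tumour pair is highest for the immediate early list (2.57) and lowest for the endothelial list (-2.17), and the median of all genes is near 0 in each pair.

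The tumour pair difference was also tested against the mean of the other differences by limma over all 6 libraries, with 1 residual degree of freedom (5.06 with the prior). None of 11558 genes passed at an adjusted p under 0.05, and 588 higher and 268 lower genes (5.09% and 2.32%) had an unadjusted p under 0.05. The smallest adjusted p was 0.11. With small RNA genes kept in the table, 6 genes passed as higher and 2 as lower. For no gene is a temperature difference particular to the tumour region therefore shown by a test with small RNA genes left out, and the classes of genes past 2-fold in the tumour pair alone describe these 6 libraries.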

How the data were processed

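The 6 libraries were compared as 3 pairs of 37 and 6 degrees. The submitters' processing notes list TopHat2 2.1.1, Bowtie2 and Cuffdiff 2.2.1 and the build mm10, without settings. The authors deposited FPKM for 24346 gene symbols in each library. Annotation, scaling and strand setting are not given in the sources used, so antisense partners may share reads. Depth was estimated from the most common low value of FPKM times transcript length, taken as 1 fragment, among 1642 genes examined. In each library 56 to 83 genes lay at that value. The estimate covers counting error only.

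From these values, 1313 small RNA symbols were left out and genes averaging 1 FPKM or more across libraries were retained. A pseudocount of 1 FPKM was added before log2, which understates differences of low genes, and a difference of at least 1 or at most -1 counted as 2-fold. Models were fitted with limma 3.58.1 in R 4.3.3 (empirical Bayes with an intensity trend, Benjamini-Hochberg adjustment) and tested on simulated data. Gene lists were written from general knowledge. Members and lists were chosen with earlier results of these data known. Named genes were the 12 largest differences each way in the tumour pair alone, the 6 in all 3 pairs, the 4 shared with each other pair, up to 5 of opposite sign, those next to the threshold, up to 6 members of each list farthest from 0 and the genes of the sort. Other named genes lie outside this rule. Some complete a count, and the rest were chosen after their values were seen, also where the text does not say so. Gene coordinates are from GENCODE on GRCm38 and promoters from RefSeq on GRCm38.p6. Other pseudocounts, filters, scalings and priors were tried as alternatives.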

Additional observations from a re-analysis of the deposited data

Results flagged for a closer look

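In 10 genes that were past 2-fold in the tumour pair, the difference had the opposite sign, and was also past 2-fold, in another pair, and 9 of them fall under the rule for named genes. The difference between pairs was not tested for single pairs, and none of these genes passed the limma test of the tumour pair against the mean of the other pairs. Egr2, an immediate early zinc finger factor, differed by 2.818 in the tumour pair, -1.07 in the non-tumour pair and 2.89 in the normal diet pair. Its values were 286 FPKM at 37 degrees, against 39.8 FPKM at 6 degrees, in the tumour pair and 21.5 FPKM at 37 degrees and 46.2 FPKM at 6 degrees for non-tumour cells. Slc10a6, a transporter of sulfated steroids, differed by 2.246 in the tumour pair, -1.05 in the non-tumour pair and -0.84 in the normal diet pair, and was at 11.5 FPKM at 37 degrees, against 1.64 FPKM at 6 degrees, in the tumour pair and at 1.12 to 4.71 FPKM in the other 4 libraries. Hbegf, a ligand of the EGF receptor, differed by 1.557 in the tumour pair, -1.14 in the non-tumour pair and -0.38 in the normal diet pair. Plk2, a stress-induced kinase, differed by 1.296 in the tumour pair, -1.14 in the non-tumour pair and 0.03 in the normal diet pair. The chemokine gene Ccl4 differed by 1.112 in the tumour pair, -1.87 in the non-tumour pair and 0.07 in the normal diet pair, and the cytokine gene Il1b by 1.079 in the tumour pair, -1.41 in the non-tumour pair and -1.95 in the normal diet pair. Il1b was at 30.2 FPKM at 37 degrees, against 13.8 FPKM at 6 degrees, in the tumour pair and at 0.143 FPKM at 37 degrees and 2.03 FPKM at 6 degrees for non-tumour cells, and 0.209 FPKM at 37 degrees and 3.67 FPKM at 6 degrees for normal diet cells. Ccl4 was at 0.239 FPKM at 37 degrees and 3.52 FPKM at 6 degrees for non-tumour cells. At 37 degrees macrophage markers summed to 941 FPKM in the tumour, 48.6 FPKM in the non-tumour and 53.5 FPKM in the normal diet library. The part of macrophages in the Ccl4 and Il1b differences was not tested.

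The remaining 3 belong to families of near-identical copies, where the division of reads is uncertain. Amd2 differed by -4.023 in the tumour pair, 3.87 in the non-tumour pair and -3.41 in the normal diet pair, while the sum of Amd1 and Amd2 differed by 0.46 in the tumour pair, 0.46 in the non-tumour pair and 0.03 in the normal diet pair. The ribosomal protein gene Rps27 differed by -2.758 in the tumour pair, -5.40 in the non-tumour pair and 5.99 in the normal diet pair. The histone gene Hist2h2ac differed by -1.823 in the tumour pair, 1.35 in the non-tumour pair and 0.76 in the normal diet pair.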

How the results depend on the processing

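The labels give no replicate numbers, so pairing by animal was not possible. Liver source was a covariate of both limma tests. Each source had 1 library at each temperature, so both tests compared temperatures within a source. Signs were checked for the 264 named genes under the pseudocount, median-ratio and quantile settings, and no called value among them turned its sign. The median-ratio, quantile, pseudocount and small RNA settings left the counts of higher and lower genes in the tumour pair within 1.5 times. With a mean of at least 5 FPKM, 263 genes were lower in the tumour pair and 20 lower in the tumour pair alone, and without a filter on low values 150 were lower in the tumour pair alone. With genes called not moved only within 0.5 in both other pairs, the tumour pair alone held 89 higher and 23 lower genes. With a pseudocount of 0.1 FPKM it held 191 higher and 111 lower genes, of which 134 and 34 were in the classes as reported. In the test over the other pairs, 5 genes were higher without the intensity trend, 15 after median-ratio rescaling, 8 with small RNA genes kept and 0 higher and 0 lower without a filter. In the test of the tumour pair against the others, 6 genes passed as higher and 2 as lower with small RNA genes kept, a setting that for both tests was chosen after seeing the data. Among the 264 named differences, quantile normalization put 12 back under 2-fold and 5 past it. Depth limits values near 1 fragment, 0.0589 FPKM for 1 kb in the tumour library at 37 degrees.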
